A study of Mus musculus with 20 samples.

Results

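Transcript levels of 10 transcription factor genes of T cells and innate lymphocytes, Tcf7, Lef1, Gata3, Bcl11b, Tbx21, Eomes, Zbtb16, Zbtb7b, Runx3 and Tox, were examined across 10 sorted populations of mouse haematopoietic cells. The genes were chosen by name, with no measured value in the rule, but with earlier results of these data known. Each was read by the probe set with the highest mean over the 20 arrays among those that the platform annotation gives to that gene alone. Such a probe set was found for 9 of the 10 genes, among 18193 genes with one, and all 9 passed the filter on dim genes, among 14044 that did. Tcf7, which encodes TCF1, had none under its symbol alone and was not analysed here. Together the 9 genes had 20 probe sets.

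The cells came from C57BL/6 mice, for which the labels name no treatment, and each population had 2 arrays, labelled biological replicates 1 and 2. The sources used here do not give the age of the mice, the tissue, the number of animals behind a replicate or any gate other than the surface markers in the labels. The lymphocytes were CD4+ T cells (CD4T), CD8+ T cells (CD8T), cells positive for both CD3ε and NK1.1 (NKT), NK1.1+ cells labelled NK (NK) and B220+ cells (B). The other mature fractions were Ter119+ cells (Erythroblast), Gr-1+ cells (Neutrophil) and Mac-1+ cells labelled monocytes/macrophages (Monocyte). The immature fractions were KSL, by common usage lineage-negative cells with Sca-1 and Kit in which stem cells are concentrated, and lineage-negative cells as a whole (LinNeg). The NKT gate holds any T cell with NK1.1, so it is not limited to CD1d-restricted cells, and the NK label names no exclusion of CD3ε. Likewise the CD4T and CD8T labels name no exclusion of NK1.1. Values are intensities of Affymetrix Mouse Genome 430 2.0 arrays, given for replicates 1 and 2 in that order. Differences are on the log2(intensity + 6.75) scale with their standard error from limma. A gene was called in a comparison at a Benjamini-Hochberg adjusted p under 0.05 and a log2 difference of 1 or more in either direction. In sorted bulk cells, fewer cells of a type and less RNA per cell cannot be told apart.

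T cell identity is laid down in the thymus, where Notch signalling turns on TCF1 and GATA3, and these are followed by BCL11B, which closes off other fates. Later choices use further factors: ThPOK, encoded by Zbtb7b, and RUNX3 divide the CD4 and CD8 lineages, PLZF, encoded by Zbtb16, directs NKT cells, and the T-box factors T-bet, encoded by Tbx21, and EOMES direct NK cells and cytotoxic T cells. TOX, an HMG box protein, acts in the development of CD4 T cells, NK cells and other innate lymphocytes.

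Arrays of a population correlated at 0.953 to 0.972 across genes, which are not independent replicates. The labels were set against lists of markers, summed per array. T cell markers (7 of 8 measured) summed to 12144 to 13461 in the 4 arrays of CD4T and CD8T, 10357 and 10472 in NKT, 1122 and 1073 in NK, 492 and 663 in LinNeg, 246 and 261 in KSL, and 72.5 and 103 in B. NK markers (8 of 8 measured) summed to 17653 and 18939 in NK and to 12278 and 11857 in NKT. CD8T had 5456 and 6367, and CD4T had 2045 and 1963. All markers of both lists lay above the median of all intensities, 22.9, in both NKT arrays. The NK arrays also carried markers of monocytes and macrophages (7 of 8 measured), at 19985 and 16605, where the Monocyte arrays had 15279.8 and 16609. The Neutrophil arrays had 15547 and 12558 for that list. Its mean log2 level was 10.57 and 10.28 in NK, above 9.19 and 9.59 in Monocyte. Neutrophil markers (8 of 8 measured) summed to 18153 and 13930 in NK, against 98656 and 81799.6 in Neutrophil and 79554 and 66311.5 in Monocyte. By these sums the Monocyte and Neutrophil arrays were alike. In NKT these lists summed to 618 and 2692 and to 282 and 2102, higher in replicate 2, whereas in the 4 arrays of CD4T and CD8T the first summed to 112 to 182 and the second to 114 to 166. LinNeg replicate 2 had a neutrophil sum of 3008 against 110.2 in replicate 1. None of the deposited values was exactly 0, and in NK 0 of the 7 monocyte markers and 1 of the 8 neutrophil markers were at or below the pseudocount. The part of these other cells in the members' values was not tested.

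**Figure D1:**
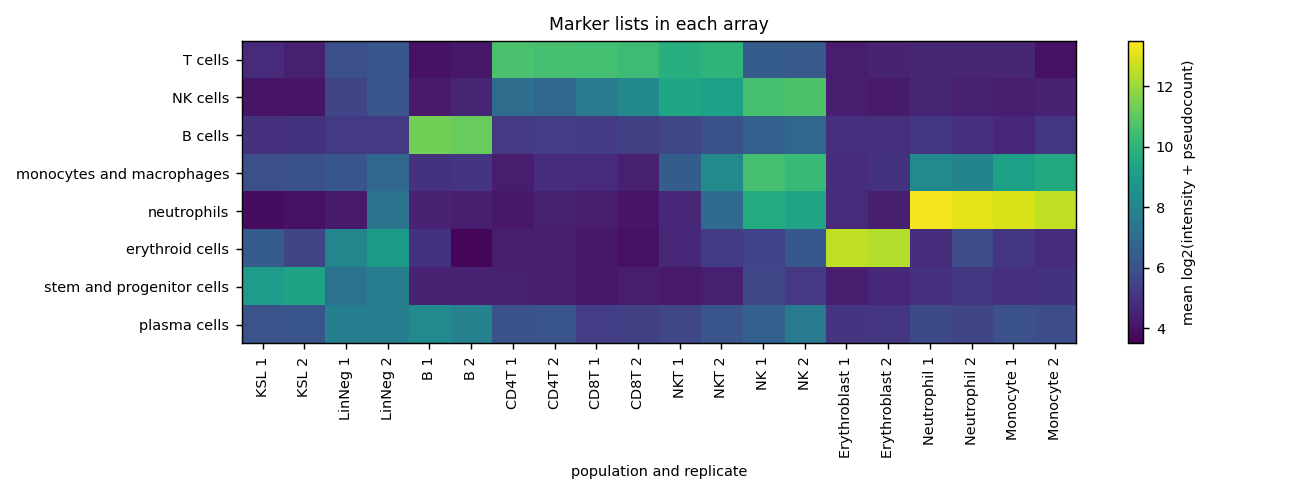
Mean log2(intensity + 6.75) over the measured genes of 8 marker lists (rows) in each of the 20 arrays (columns, by population and replicate), as a colour scale from dark (low) to yellow (high). For monocyte and macrophage markers the NK arrays stand at 10.57 and 10.28, against 4.32 and 4.80 in CD4T.

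All 9 measured genes differed among the 10 populations by the F test in limma, as did 76.5% of the genes tested. Their F test adjusted p ran from 3.32e-13 for Bcl11b to 0.000151 for Zbtb16. Of the 24 pairs that set CD4T, CD8T, NKT or NK against one of the other 6 populations, Tbx21 was higher in the T or NK population at an adjusted p under 0.05 in 24. The count was 23 for Gata3, Bcl11b and Eomes, 22 for Lef1 and Tox, 14 for Runx3, 12 for Zbtb16 and 9 for Zbtb7b. Over the same pairs the median share of genes tested that were higher in this way was 16.8%, and over all 45 pairs of populations 37.3% differed in either direction at the median. Zbtb7b was the one member with pairs in the other direction, 5 of them by its brightest probe set, all with CD8T as the lower side. By these counts 6 members were higher in 22 or more of the 24 pairs, and the other 3, Runx3, Zbtb16 and Zbtb7b, in 14 or fewer. The 24 pairs reuse the same arrays, so they are not separate results. The share of all genes tested that reach such counts was not computed, and 16.8% is a share per pair.

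**Figure D2:**
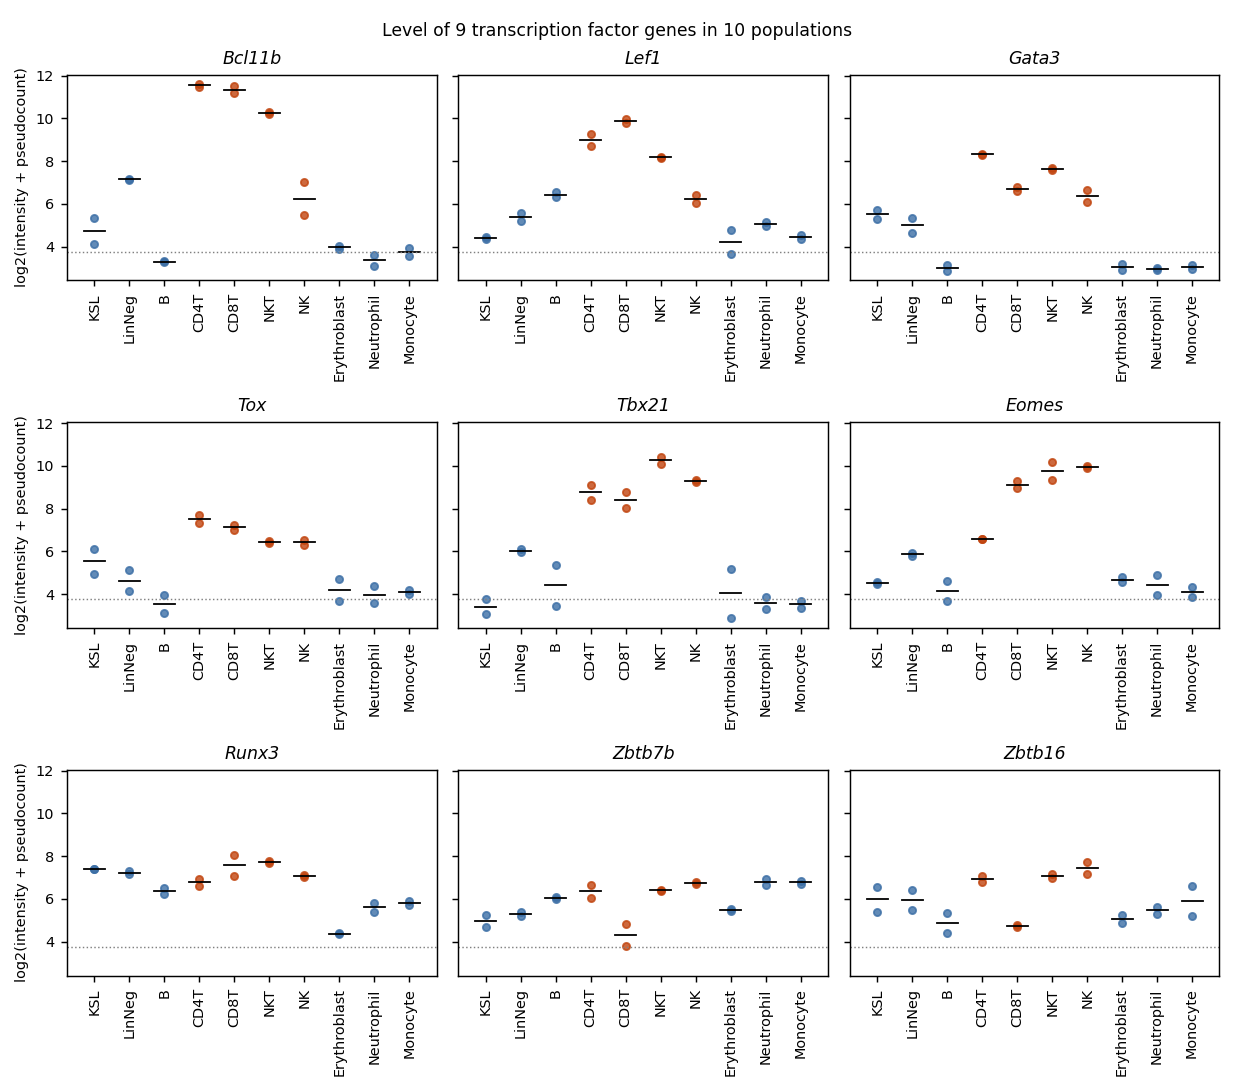
Intensity of the 9 measured members on the log2(intensity + 6.75) scale in each population, 1 panel a gene; points are arrays, bars are means of 2, T and NK populations are red-orange, the others blue, and the dotted line marks an intensity equal to the pseudocount. Bcl11b stands near 11.53 in CD4T and 3.29 in B, while Zbtb7b is lowest in CD8T, at 4.29.

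Bcl11b (chr12:107910403-108004145, GRCm38.p6) encodes a zinc finger repressor required for T cell commitment. It read 2813 and 3116 in CD4T, 2874 and 2325 in CD8T, and 1246 and 1169 in NKT. It read 133.5 and 137 in LinNeg, 37.3 and 123 in NK, and 33.4 and 10.9 in KSL. The 6 arrays of CD4T, CD8T and NKT lay above all others, and the 2 NK arrays differed from each other more than the LinNeg arrays did. In the other 4 populations the values were 8.21 and 9.45 in Erythroblast, 8.74 and 4.90 in Monocyte, 5.44 and 1.80 in Neutrophil, and 2.85 and 3.27 in B, all near or below the pseudocount. In the order of levels, CD4T did not differ from CD8T nor CD8T from NKT. NKT exceeded LinNeg by 3.09 ± 0.41 (limma adjusted p = 8.58e-06), and NK exceeded KSL by 1.51 ± 0.41 (adjusted p = 0.00765), while LinNeg and NK did not pass (adjusted p = 0.0941).

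Lef1 (chr3:131110297-131224357) encodes an HMG box factor that pairs with β-catenin and acts beside TCF1 in thymocytes. It read 987 and 860.5 in CD8T, 408 and 617 in CD4T, and 288 and 273 in NKT. B followed with 73.0 and 85.8 and NK with 59.2 and 79.8, so these latter 2 populations overlapped. The remaining arrays read between 5.87, in Erythroblast, and 41.2, in LinNeg. In the order of levels, CD8T did not differ from CD4T nor CD4T from NKT, and NKT exceeded B by 1.74 ± 0.33 (limma adjusted p = 0.000736). B exceeded KSL by 2.01 ± 0.33 (adjusted p = 0.000120).

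Gata3 (chr2:9857078-9887953) encodes a zinc finger factor needed for early T cells, CD4 lineage cells and innate lymphocytes. It read 307 and 319 in CD4T, 199.6 and 185 in NKT, 105 and 91.3 in CD8T, and 60.6 and 93.0 in NK. The arrays of CD8T and NK overlapped, and those of CD4T lay above all others. KSL followed with 32.4 and 45.7 and LinNeg with 18.1 and 34.2. In B, Erythroblast, Neutrophil and Monocyte the highest of the 8 arrays read 2.50. No neighbours differed from CD4T down to LinNeg, and LinNeg exceeded Erythroblast by 1.93 ± 0.36 (limma adjusted p = 0.000126). KSL exceeded B by 2.50 ± 0.36 (adjusted p = 2.19e-05).

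Tox (chr4:6686353-6991557) read 200.5 and 152 in CD4T, 120.2 and 146 in CD8T, 76.0 and 82.2 in NKT, and 71.9 and 86.1 in NK. All 8 of these arrays exceeded the KSL arrays, at 24.1 and 62.7, and the other populations ran from 2.04, in B, to 27.8, in LinNeg. No neighbours in the order of Tox levels differed. Across that order, CD4T exceeded KSL by 1.97 ± 0.47 (limma adjusted p = 0.00301) and KSL exceeded B by 1.99 ± 0.47 (adjusted p = 0.00306).

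Tbx21 (chr11:97098007-97115331) and Eomes (chr9:118478186-118486132) encode paired T-box factors that bind like sites and drive cytotoxic and interferon-γ genes. Tbx21 read 1088 and 1360.1 in NKT, 637 and 598 in NK, 547 and 332 in CD4T, and 251 and 425 in CD8T. LinNeg followed with 55.4 and 62.4, and no other array exceeded 34.4, the value of B replicate 1. The 4 T and NK populations did not differ between neighbours, and CD8T exceeded LinNeg by 2.35 ± 0.59 (limma adjusted p = 0.00437). LinNeg exceeded B by 1.62 ± 0.59 (adjusted p = 0.0412). Eomes read 946 and 1018 in NK, 1135 and 649.6 in NKT, and 485 and 616 in CD8T, but 89.5 and 88.0 in CD4T. LinNeg read 54.4 and 48.2, and the other 5 populations ran from 5.95 to 22.9. For Eomes, neighbours in the order differed between CD8T and CD4T, by 2.53 ± 0.36 (adjusted p = 0.000292), and between LinNeg and Erythroblast, by 1.17 ± 0.36 (adjusted p = 0.0101). CD4T and LinNeg did not pass (adjusted p = 0.131).

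The levels of Tbx21 and Eomes correlated at 0.935 over the 10 population means, which share arrays and scaling, and the 250 bases before each start site are shown here because both genes were high in the same cytotoxic populations while parting in CD4T. They are RefSeq sequences of GRCm38.p6, chr11:97115332-97115581 on the minus strand for Tbx21 and chr9:118477939-118478188 on the plus strand for Eomes, written 5′ to 3′ with a match to a searched motif in capitals.
Tbx21: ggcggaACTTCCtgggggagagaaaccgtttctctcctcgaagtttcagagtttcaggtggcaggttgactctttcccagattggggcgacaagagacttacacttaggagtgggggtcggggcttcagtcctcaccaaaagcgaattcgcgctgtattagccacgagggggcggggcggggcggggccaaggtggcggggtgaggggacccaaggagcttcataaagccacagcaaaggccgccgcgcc
Eomes: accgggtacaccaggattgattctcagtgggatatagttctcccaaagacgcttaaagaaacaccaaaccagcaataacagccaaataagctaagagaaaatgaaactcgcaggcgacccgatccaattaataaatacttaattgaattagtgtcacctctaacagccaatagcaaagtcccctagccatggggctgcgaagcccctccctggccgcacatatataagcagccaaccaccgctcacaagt
The motifs were searched on both strands, and the share of 32851 such windows that hold each is given with it. They were AGATAA for the GATA family (9.99%), TGTGGT for RUNX factors (14.0%), CTTTGA for LEF1 and its kin (13.8%), GGAAGT for ETS factors (19.7%) and AGGTGT for T-box factors (11.8%). The Tbx21 window held 1 match, GGAAGT on the opposite strand from -244 to -239, and the Eomes window held none of these letters. G and C made up 60.8% of the Tbx21 window and 46.4% of the Eomes window, against a median of 52.4%. The last 3 bases of the Eomes window lie within the gene span given above. A promoter entry was found for 8 of the 10 named genes, not for Zbtb16 and Tox.

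Zbtb16 (chr9:48651797-48836225) encodes PLZF, a BTB zinc finger factor. It read 139 and 206 in NK, 121 and 138 in NKT, and 128 and 104 in CD4T, but 18.8 and 20.9 in CD8T. KSL read 87.2 and 35.8, LinNeg 37.3 and 79.4, and Monocyte 30.6 and 91.4, each with arrays more than 2-fold apart. With this probe set the 6 arrays of NK, NKT and CD4T lay above all others, and CD8T had the lowest mean of the 10 populations. With another, the mean was 11.4 in B and 14.6 in CD8T, and CD4T replicate 2, at 30.6, lay below both KSL arrays (47.3 and 31.2). With the remaining one, the mean was 0.70 in Erythroblast and 0.96 in CD8T. No neighbours in the order of Zbtb16 levels differed. NKT exceeded CD8T by 2.36 ± 0.47 (limma adjusted p = 0.00605), whereas its difference from CD4T was 0.15 ± 0.47 (adjusted p = 0.921). The CD4T label names no exclusion of NK1.1, and the part of NK1.1+ cells in the CD4T value was not tested.

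Zbtb7b (chr3:89377644-89393673) encodes ThPOK, the factor of the CD4 lineage. It read 115 and 93.2 in Neutrophil, 107 and 98.2 in Monocyte, 96.2 and 103 in NK, 76.5 and 79.0 in NKT, and 93.3 and 59.9 in CD4T. B read 57.0 and 60.8, Erythroblast 38.7 and 36.9, LinNeg 34.9 and 29.7, and KSL 30.9 and 19.1. CD8T, at 6.95 and 21.3, had the lowest mean, and its arrays overlapped those of KSL alone. The other probe set was as bright, with a mean of 62.5 against 62.9, and read 28.6 and 9.96 in CD8T. Those arrays overlapped KSL (5.31 and 47.0), LinNeg (6.77 and 33.6), B (11.6 and 43.2) and Erythroblast (27.5 and 51.2). The order and tests given here rest on the brightest probe set. No neighbours differed, but Neutrophil exceeded KSL by 1.83 ± 0.34 (limma adjusted p = 0.000163), and B exceeded CD8T by 1.74 ± 0.34 (adjusted p = 0.000982). Neutrophil and CD4T differed by 0.44 ± 0.34 (adjusted p = 0.330). The NK value stands beside the myeloid marker sums of those arrays, and their part in it was not tested.

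Runx3 (chr4:135120645-135177990) encodes a RUNT domain factor that silences CD4 in the CD8 lineage. It read 201 and 211 in NKT and 129 and 258.5 in CD8T. KSL read 162 and 161, LinNeg 150.2 and 135, NK 124 and 132, and CD4T 90.5 and 116. B read 68.2 and 85.6, Monocyte 53.3 and 45.4, Neutrophil 35.0 and 49.6, and Erythroblast 14.5 and 13.7. The KSL and LinNeg arrays lay within the range of the CD8T arrays, and the Erythroblast arrays lay below all others. The single break between neighbours was Neutrophil over Erythroblast, 1.22 ± 0.29 (limma adjusted p = 0.00148). KSL exceeded Erythroblast by 3.01 ± 0.29 (adjusted p = 3.99e-08).

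In the comparison of CD4 with CD8 T cells, 4 of the 9 members were called against 3.16% of genes tested, 3 of them higher in CD4T (2.08% of genes) and 1 lower (1.08%). Gata3 was higher in CD4T by 1.61 ± 0.36 (limma adjusted p = 0.0118), Zbtb16 by 2.20 ± 0.47 (adjusted p = 0.00941) and Zbtb7b by 2.06 ± 0.34 (adjusted p = 0.00127). Eomes was lower in CD4T by a log2 difference of -2.53 ± 0.36 (adjusted p = 0.000292). The arrays of the compared populations did not overlap for any of these 4. With 2 arrays a population, arrays of unchanged genes can also lie apart. The share of all genes tested without overlap was not computed, here or in the comparisons below. Lef1, at -0.87 ± 0.33 (adjusted p = 0.187), and Runx3, at -0.80 ± 0.29 (adjusted p = 0.162), had non-overlapping arrays with lower values in CD4T and did not pass. Bcl11b, Tbx21 and Tox had adjusted p of 0.887, 0.841 and 0.784, although the Tox arrays did not overlap either. The Gata3 call was lost without any 1 of the 4 arrays. Its difference was then 1.64 and 1.58 without CD4T replicates 1 and 2, and 1.71 and 1.52 without CD8T replicates 1 and 2 (adjusted p 0.0831, 0.0756, 0.0617 and 0.0985). The Zbtb16 call was lost without CD4T replicate 1 (2.06, adjusted p = 0.101), CD8T replicate 1 (2.14, adjusted p = 0.0805) and CD8T replicate 2 (2.26, adjusted p = 0.0579). Runx3 passed without CD8T replicate 1, at -1.28 (adjusted p = 0.0436). The Gata3 call was also lost with the pseudocount at the 5th percentile (1.66, adjusted p = 0.109). The Eomes and Zbtb7b calls held without each array in turn, but Zbtb7b lost its call when only the arrays of the populations compared were fitted (2.06, adjusted p = 0.0532).

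**Figure D3:**
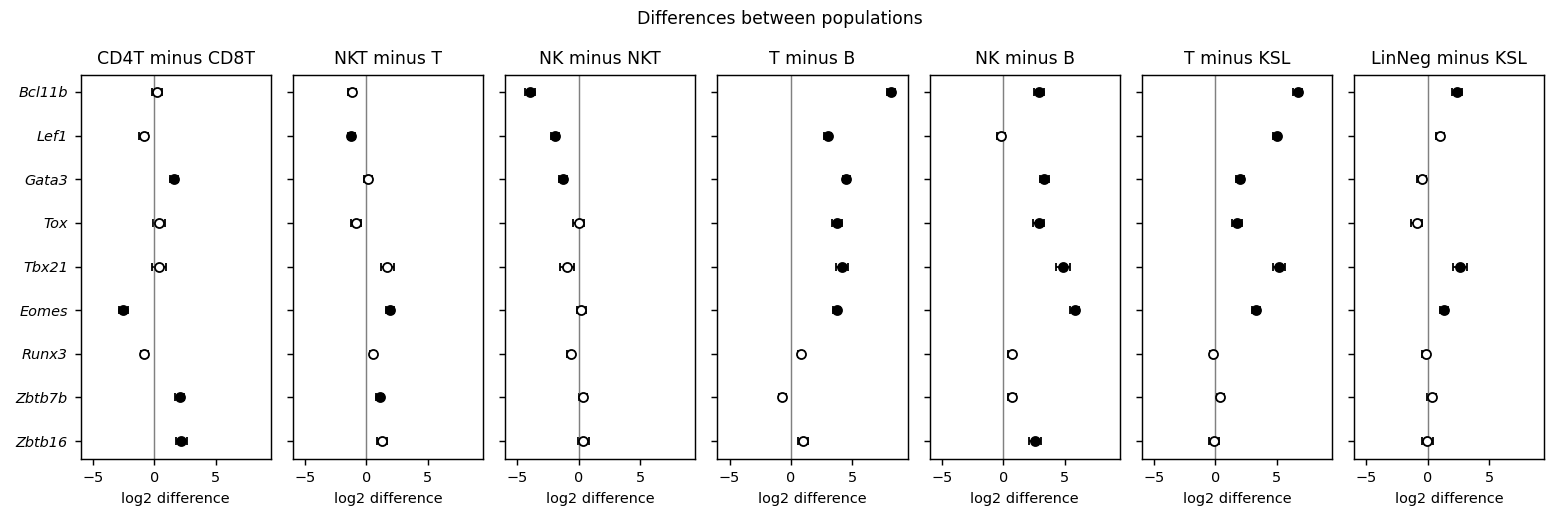
Log2 difference of each measured member in the 7 comparisons, with standard error bars from limma; filled points are called. Eomes lies at -2.53 in CD4T minus CD8T, and Bcl11b at 8.14 in T minus B and -4.00 in NK minus NKT.

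NKT cells were compared with T, the mean of CD4T and CD8T with equal weight, and 3 of the 9 members were called against 3.22% of genes tested, 2 higher (1.89% of genes) and 1 lower (1.32%). Eomes was higher in NKT by 1.91 ± 0.31 (limma adjusted p = 0.000880) and Zbtb7b by 1.08 ± 0.30 (adjusted p = 0.0433), and Lef1 was lower, at -1.26 ± 0.29 (adjusted p = 0.0150). The T mean hides a split in these genes. For Eomes, NKT exceeded CD4T by 3.18 and CD8T by 0.65 (adjusted p = 0.418). For Zbtb7b, NKT exceeded CD8T by 2.11 while the CD4T arrays enclosed those of NKT. For Lef1, NKT lay below CD8T by 1.69 (limma adjusted p = 0.00566) and below CD4T by 0.82 (adjusted p = 0.196). Zbtb16, the factor named for NKT cells, gave 1.25 ± 0.41 (adjusted p = 0.0914), Tbx21 1.69 ± 0.51 (adjusted p = 0.0695) and Bcl11b -1.19 ± 0.35 (adjusted p = 0.0626). The arrays of NKT and T did not overlap for Tbx21 and Bcl11b and overlapped for Zbtb16. Without NKT replicate 1 all 3 calls were lost, 6 members had an unadjusted p under 0.05 in limma, and the Eomes difference was 1.51 (adjusted p = 0.0516). Lef1 lost its call without NKT replicate 1 (-1.30), NKT replicate 2 (-1.22), CD4T replicate 2 (-1.11) and CD8T replicate 1 (-1.21), and Zbtb7b without the same 4 arrays, at adjusted p from 0.130 to 0.246. With the pseudocount at the 5th percentile Eomes alone kept its call. NKT replicate 2 also carried the higher myeloid marker sums, whose part was not tested.

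NK minus NKT, which uses the same NKT arrays, gave calls for 3 of the 9 members against 11.1% of genes tested, all lower in NK (4.39% of genes). Bcl11b differed by -4.00 ± 0.41 (limma adjusted p = 9.08e-07), Lef1 by -1.93 ± 0.33 (adjusted p = 0.000382) and Gata3 by -1.28 ± 0.36 (adjusted p = 0.0173). Eomes differed by 0.19 ± 0.36 (adjusted p = 0.790) with overlapping arrays, Tbx21 by -0.97 ± 0.59 (adjusted p = 0.309) and Zbtb16 by 0.37 ± 0.47 (adjusted p = 0.667). Runx3, Tox and Zbtb7b had adjusted p of 0.142, 0.996 and 0.583. The Gata3 call was lost without NK replicate 1 (-0.99, adjusted p = 0.190), NKT replicate 1 (-1.22, adjusted p = 0.103) and NKT replicate 2 (-1.33, adjusted p = 0.0683). It was also lost with the pseudocount at the 5th percentile (-1.34, adjusted p = 0.107). The Bcl11b and Lef1 calls held without each array in turn. The median of all genes tested was -0.13 in this comparison, and the myeloid marker sums stand far higher in NK. Their part in these differences was not tested.

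Against B cells, 6 of the 9 members were called higher in T, with 12.8% of genes called in that comparison (7.01% higher). The differences were 8.14 ± 0.35 for Bcl11b, 4.51 ± 0.31 for Gata3, 4.16 ± 0.51 for Tbx21, 3.77 ± 0.41 for Tox, 3.72 ± 0.31 for Eomes and 2.999 ± 0.29 for Lef1 (limma adjusted p at most 4.62e-06). The B arrays lay below the pseudocount for Bcl11b and Gata3, so the sizes for these genes depend on it. Over the alternative settings the difference ran from 5.76 to 9.34 for Bcl11b and from 3.06 to 6.19 for Gata3. Runx3, at 0.79 ± 0.25 (adjusted p = 0.0325), fell short of the size threshold and passed it without CD8T replicate 1, at 1.03. Zbtb16, at 0.95 ± 0.41 (adjusted p = 0.122), and Zbtb7b, at -0.71 ± 0.30 (adjusted p = 0.108), were not called. In NK minus B, 6 members were called higher against 14.1% of genes (9.35% higher). These were Eomes at 5.82 ± 0.36, Tbx21 at 4.87 ± 0.59, Gata3 at 3.35 ± 0.36, Bcl11b at 2.95 ± 0.41, Tox at 2.88 ± 0.47 and Zbtb16 at 2.58 ± 0.47 (adjusted p at most 0.000413). Lef1 differed there by -0.19 ± 0.33 (adjusted p = 0.783) with overlapping arrays. Over the alternative settings of NK minus B, Gata3 ran from 2.02 to 4.985 and Bcl11b from 1.45 to 4.02. T cell markers summed to 1122 and 1073 in NK against 72.5 and 103 in B. Markers of monocytes and macrophages summed to 19985 and 16605 in NK against 219 and 230 in B. The part of such cells in the NK differences was not tested. The B arrays serve both comparisons. The calls for T held without each array in turn, as did those for NK.

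Against KSL, 6 members were called higher in T, with 22.2% of genes called (8.64% higher). They were Bcl11b at 6.70 ± 0.35, Tbx21 at 5.16 ± 0.51, Lef1 at 5.004 ± 0.29, Eomes at 3.31 ± 0.31, Gata3 at 2.01 ± 0.31 and Tox at 1.78 ± 0.41 (limma adjusted p at most 0.00188). Tbx21 lay near or below the pseudocount in KSL, and its difference ran from 3.88 to 6.30 over the alternative settings. Runx3 differed by -0.22 ± 0.25 (adjusted p = 0.550), Zbtb16 by -0.15 ± 0.41 (adjusted p = 0.820) and Zbtb7b by 0.36 ± 0.30 (adjusted p = 0.386), each with arrays that overlapped. The Tox call was lost without KSL replicate 1, at 1.19 (adjusted p = 0.0899). The same T arrays enter the comparisons with NKT and B.

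LinNeg minus KSL, which shares the KSL arrays, gave calls for 3 members against 5.3% of genes tested, all higher in LinNeg (2.35% of genes). Tbx21 differed by 2.62 ± 0.59 (limma adjusted p = 0.00889), Bcl11b by 2.42 ± 0.41 (adjusted p = 0.000971) and Eomes by 1.32 ± 0.36 (adjusted p = 0.0288), and their arrays did not overlap. The Tbx21 difference ran from 1.60 to 3.66 over the alternative settings. Lef1 differed by 0.98 ± 0.33 (adjusted p = 0.0817). In the same arrays the T cell marker sum was 492 and 663 in LinNeg against 246 and 261 in KSL, and the NK marker sum was 610 and 810 against 104 and 92.1. Their part in the differences was not tested. The Eomes call was lost without KSL replicates 1 and 2 (1.28 and 1.36) and LinNeg replicates 1 and 2 (1.24 and 1.40), and with the pseudocount at the 5th percentile (1.57, adjusted p = 0.0535) or at the median (0.91). The Tbx21 call was lost without KSL replicate 1 (2.27, adjusted p = 0.0803), LinNeg replicate 1 (2.70, adjusted p = 0.0626) and LinNeg replicate 2 (2.55, adjusted p = 0.0524). Bcl11b stayed called without each array.

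Of the 9 genes, 7 had more than 1 probe set, and Gata3 and Tbx21 had 1. Over the 10 population means, the other probe sets correlated with the brightest at 0.954 for Lef1, 0.930 to 0.990 for Bcl11b, 0.995 for Eomes, 0.942 and 0.973 for Zbtb16, 0.829 and 0.976 for Tox and 0.839 for Zbtb7b. These correlations describe levels that share arrays and scaling. For Runx3 the value was -0.675, where the other probe set had a mean of 8.49, near the pseudocount, against 112 for the brightest. Both probe sets of Zbtb7b were higher in CD4T than in CD8T, by 2.06 and 2.00. In NKT minus T they gave 1.08 and 0.15, and in T minus B -0.71 and 0.68, so the direction against B depends on the probe set. Both probe sets of Zbtb7b had higher means in Neutrophil than in CD4T. For Lef1 in NK minus B the 2 probe sets gave -0.19 and 1.64. The called difference of Bcl11b in NK minus B was 2.95 with the brightest probe set and 1.28, 1.17 and 0.40 with the others, and that of Tox was 2.88 with the brightest and 2.87 and 0.45 with the others. In T minus B the probe sets of Bcl11b ran from 3.798 to 8.144 and those of Tox from 1.5001 to 3.769. In NK minus NKT those of Bcl11b ran from -4.14 to -1.82. The CD4T minus CD8T difference of Zbtb16 was 1.56 to 3.27 over its 3 probe sets, and that of Eomes was -3.35 and -2.53.

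**Figure D4:**
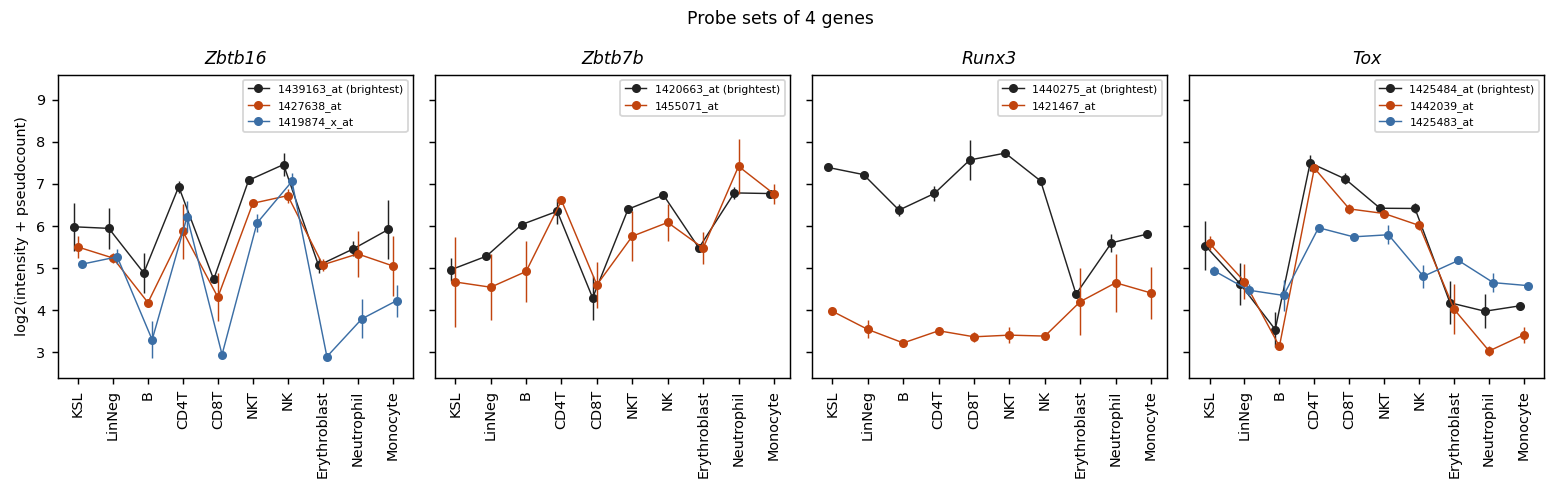
Mean log2(intensity + 6.75) of the 2 arrays per population for each probe set of 4 members, Zbtb16, Zbtb7b, Runx3 and Tox, with vertical lines spanning the arrays. The 3 probe sets of Zbtb16 are each lower in CD8T than in CD4T, and the dim probe set of Runx3, with a mean intensity of 8.49, does not follow the brighter one.

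The genes whose population pattern was most like each member were found by Pearson correlation over the 10 population means, a description with n = 10 that shares arrays and scaling. Bcl11b was most like Il7r (0.989), the interleukin 7 receptor, and Cd3g (0.983), which encodes CD3γ of the antigen receptor. Lef1 was most like Sidt1 (0.990) and Slamf6 (0.979), Gata3 like Prkcq (0.977) and Cd96 (0.975), and Tox like Cd96 (0.968) and Sbf1 (0.958). Tbx21 was most like Il2rb (0.991), a chain of the interleukin 2 and 15 receptors, Fasl (0.987), a death ligand, and Cxcr3 (0.980), a chemokine receptor. Eomes was most like Cd7 (0.993) and the NK receptor genes Klre1 (0.988) and Klra7 (0.987). Runx3 was most like Pex26 (0.976). The best values were lower for Zbtb16, with Il12rb2 (0.905), and Zbtb7b, with Ticam1 (0.891). Among the members themselves Gata3 and Tox (0.957), Tbx21 and Eomes (0.935) and Gata3 and Bcl11b (0.911) were the most alike, and Zbtb7b ran from -0.28 to 0.53 with the others.

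Relatives of the members, partners and other lymphocyte regulators, and lineage genes named as targets were read from lists of 12, 18 and 20 genes, of which 11, 18 and 18 were tested. The targets include Cd4, Cd8a, Cd8b1 and Cd3e, genes of surface markers used in the sort, so their differences are partly set by the gates. The targets also share Cd3d, Cd3e, Cd3g, Cd5, Cd6, Lck and Lat with the T cell markers. Their counts are therefore no separate check of the labels. In CD4T minus CD8T, where 2.08% of genes were called higher and 1.08% lower, 2 relatives were called higher and none lower: Tox2, of the TOX family, at 2.55 ± 0.56 (limma adjusted p = 0.0109), and Runx1 at 1.13 ± 0.25 (adjusted p = 0.0113). The partners gave 2 higher and 1 lower, and the targets 2 higher and 3 lower, with Cd4 at 5.28 ± 0.52 and Cd8b1 at -5.45 ± 0.55. The medians of the relatives, partners and targets were 0.05, -0.05 and 0.04, beside 0.02 over all genes tested. In T minus B, where 7.01% of genes were called higher and 5.82% lower, 1 relative was higher and 1 lower, 7 partners higher and 2 lower, and 15 targets higher, with medians of 0.02, 0.11 and 4.90 beside 0.06. The lower relative was Bcl11a, the paralogue of Bcl11b with a role in B cells and progenitors, at -6.36 ± 0.29 (adjusted p = 4.44e-12). It read 975 ± 147 (SD, n = 2) in B, and KSL and LinNeg had 699 ± 102 and 675 ± 76.0, but it was at 7.54 ± 6.27 in CD4T and 3.59 ± 0.37 in CD8T.

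In NKT minus T, 0 of the 11 relatives were called by limma, with 3 at an unadjusted p under 0.05, while 1 partner was called higher and 1 target was higher and 4 lower (1.89% of genes higher, 1.32% lower). The partner was Zeb2, which read 21.5 and 83.4 in NKT, 8.39 and 1.30 in CD4T, and 17.5 and 19.3 in CD8T. Its difference was 1.60 ± 0.45 (limma adjusted p = 0.0489), and the higher value lay in NKT replicate 2, the array with the higher myeloid marker sums. Zeb2 read 1749 and 1517 in NK and 251 and 942 in Monocyte, and the part of other cells in its difference was not tested. The medians of the relatives, partners and targets were -0.07, -0.08 and -0.25, beside 0.02 over all genes tested. In NK minus NKT, where 6.73% of genes were called higher and 4.39% lower, 2 relatives were higher and none lower, 2 partners were higher and 3 lower, and 3 targets were higher and 11 lower, with medians of 0.20, -0.57 and -1.89 beside -0.13. Stat4 and Satb1 were among the lower partners, at -1.34 ± 0.21 and -1.40 ± 0.21. In NK minus B, where 9.35% of genes were called higher and 4.76% lower, 1 relative was higher and 1 lower, 7 partners were higher and 4 lower, and 11 targets were higher and 1 lower, with medians of 0.04, -0.10 and 3.04 beside -0.05. Id2, an inhibitor of E proteins needed by NK cells, differed there by 5.85 ± 0.36, and Nfil3, which acts in NK development, by 3.87 ± 0.49. Id2 had means of 3707 in NK, 1082 in Neutrophil, 1163 in Monocyte and 59.6 in B. Nfil3 read 109 and 128 in NK, but 255 and 222 in Neutrophil and 128 and 185 in Monocyte, whose markers the NK arrays carry. The part of those cells in either difference was not tested.

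In T minus KSL, where 8.64% of genes were called higher and 13.6% lower, 5 relatives were lower and none higher, 10 partners were higher and 3 lower, and 16 targets were higher, with medians of -0.50, 1.47 and 5.02 beside -0.02. Gata2, of the GATA family, differed by -3.24 ± 0.30 while Gata3 differed by 2.01, and Ets1 and Id3 differed by 4.57 ± 0.36 and 4.48 ± 0.32. In LinNeg minus KSL, where 2.35% of genes were called higher and 2.95% lower, 1 relative, Gata1, was higher at 2.48 ± 0.43, 1 partner was higher and 2 lower, and 6 targets were higher, Cd3d, Cd3g, Il7r, Ccr7, Il2rb and Cxcr3. The medians were -0.35, 0.02 and 1.08, beside -0.01 over all genes tested. Cbfb, the shared partner of the RUNX proteins, read 4.68 ± 0.68 (SD, n = 2) in Erythroblast and from 622 to 1354 in the means of the other 9 populations. Erythroblast was also the population with the lowest Runx3.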

How the data were processed

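The authors deposited 1 linear intensity per probe set and array for 20 arrays, and the summary software is not given in the sources used here. Per the labels' protocols, RNA equivalent to 3000 cells was amplified in a kit of repeated cDNA synthesis, which favours 3′ ends; the Gapdh 3′ to 5′ ratio ran from 2.36 to 6.10. The mean of each array without 2% at either end was 100, and this scaling was kept. Of 45101 probe sets, 64 controls were dropped and 34945 with 1 symbol were used. The brightest probe set per gene was kept by mean log2(intensity + 6.75), the 25th percentile of all values as pseudocount, and 14044 genes with a population mean above 4.89 (log2) were tested. One limma fit (3.58.1, R 4.3.3) took a factor of 10 populations, with eBayes and a trend. Its p-values measure the spread between arrays labelled biological replicates, and the number of arrays limits the precision. Named genes are the 10 members, members of the lists of relatives, partners, targets and markers, and the 3 genes most like each member. The members and lists were chosen with earlier results of these data known. Same-numbered arrays deviated together with a correlation over 0.1 in 1 of 45 pairs of populations (median 0.01), and the main fit did not pair them. These values cannot show whether same-numbered arrays share animals or a sort, which the sources used here do not give. Steps were tested on simulated data. Alternatives changed the pseudocount, filter, normalization, probe set rule, block, arrays fitted and trend, and left out each array.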

Additional observations from a re-analysis of the deposited data

How the results depend on the processing

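Of 999 differences of members under alternatives, 936 kept their direction and side of the threshold, 41 lost a call, 10 gained one and 12 changed sign, none of those 12 with a call on either side. The 9 members differed among the populations in each setting run. Without 1 array, the members called in CD4T minus CD8T numbered 2 to 3 against 4, in NKT minus T 0 to 3 against 3, and in LinNeg minus KSL 1 to 2 against 3. In NKT minus T, 1 member was called with the pseudocount at the 5th percentile and 5 with only the arrays of the populations compared, a fit with fewer arrays. The signs turned as follows, and the cause was not tested. Leaving out 1 array gave -0.21 to 0.59 for Eomes and -0.12 to 0.11 for Tox in NK minus NKT, -0.38 to 0.011 for Lef1 in NK minus B, -0.46 to 0.021 for Runx3 and -0.72 to 0.42 for Zbtb16 in T minus KSL, and -0.61 to 0.53 for Zbtb16 in LinNeg minus KSL. Tox in NK minus NKT was 0.12 with array median centring and 0.024 with quantile normalization, Zbtb16 in LinNeg minus KSL was 0.091 with quantile normalization, and Lef1 in NK minus B was 0.73 with the mean of all probe sets. Median centring moved the median of all genes in NK minus NKT by 0.13. With the replicate block, Zbtb7b in NKT minus T was 1.08 with a limma adjusted p of 0.0501 and lost its call, and no other member's call changed; 2 members were then called in NKT minus T. The Zbtb7b call in NKT minus T was lost under 12 of 17 alternatives (adjusted p 0.00946 to 0.356 over all). Other calls lost without an array being left out were Gata3 in CD4T minus CD8T (1.66, adjusted p = 0.109), Gata3 in NK minus NKT and Lef1 in NKT minus T with the 5th percentile pseudocount, Eomes in LinNeg minus KSL with either pseudocount, and Zbtb7b in CD4T minus CD8T with only the arrays compared (adjusted p = 0.0532). Dim members lie near the background, so their differences are limited by signal, and Tcf7 was not analysed here.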
